A study of Homo sapiens with 6 samples.

Results

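The 36 aminoacyl-tRNA synthetase genes were examined in 3 human lung cancer cell lines. They were taken from a list of symbols and matched on the gene symbol in the deposited table of each library, with rows of the same symbol summed. The 36 genes are among 26485 in these tables. They comprise 20 genes for cytosolic enzymes and 16 for mitochondrial enzymes, whose symbols end in 2. All 36 passed the filter on low values and belong to the 14195 genes that were tested.

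The 3 lines were PC9, PC9-BrM4 and PC9-AMG, with 2 libraries each. PC9 is an established lung adenocarcinoma line with an activating EGFR mutation, and earlier studies describe PC9-BrM4 as a derivative selected for brain metastasis. The meaning of AMG in PC9-AMG is not given. All 6 libraries came from untreated cells in ordinary culture, so no treatment at sampling or time point separates the groups beyond the line itself. With the meaning of AMG not given, a past treatment or a genotype change in that line is unknown. Each line stands for 1 derivation, and a difference between lines is not a difference between classes of tumour cell. The labels do not say whether the libraries of a line came from separate cultures, so p-values reflect the spread of these libraries alone, and that spread may be technical.

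Aminoacyl-tRNA synthetases join each amino acid to its own tRNA and thereby supply every charged tRNA used by ribosomes. Cytosolic and mitochondrial protein synthesis use separate enzymes for most amino acids, although the genes GARS and KARS each encode both forms. In animal cells several cytosolic enzymes are held together with 3 scaffold proteins in the multisynthetase complex, and the remainder act outside it. Many cytosolic synthetase genes are known targets of ATF4, the transcription factor made when amino acids are short or the endoplasmic reticulum is stressed.

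The libraries corresponded to an estimated 2.66 to 4.39 gigabases of aligned sequence, and 13455 to 13764 genes reached 1 TPM (a transcript level corrected for gene length and scaled to the same total in each library). Of 7 epithelial markers, 7 reached 1 TPM in every library, with summed levels of 7997 to 11937 TPM. None of 4 lung adenocarcinoma lineage markers did, and their sum was 0 to 0.887 TPM, with SFTPC at 0 throughout. The 5 leukocyte markers summed to 41.5 to 49.7 TPM with 1 of 5 above 1 TPM in every library. That gene was CD68, at 39.9 to 49.2 TPM, and PTPRC reached at most 0.15 TPM. ITGAM stood at 3.98 and 4.13 TPM in PC9-AMG and at 0.349 to 0.607 TPM in PC9 and PC9-BrM4. The 5 fibroblast markers summed to 3.68 to 5.05 TPM in PC9 and PC9-BrM4 and to 14.6 and 15.0 TPM in PC9-AMG, with COL1A2 and DCN at 0 throughout. Nearly all of the PC9-AMG sums was COL1A1, at 14.4 and 14.8 TPM. The 4 endothelial markers summed to 2.30 to 6.07 TPM and were highest in PC9-AMG. There CDH5 stood at 4.08 and 3.29 TPM, against 1.23 to 2.46 TPM in PC9 and PC9-BrM4. The 5 astrocyte and neuron markers summed to 0.894 to 1.34 TPM. No synthetase result was tested against these markers.

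The cytosolic genes were strongly expressed. Averaged over the 6 libraries, their median level was 182 TPM, which lay at the 92.7th percentile of tested genes, and the range ran from 50.04 TPM for WARS (tryptophan) to 669 TPM for TARS (threonine). The mitochondrial genes had a median of 36.7 TPM, at the 65.4th percentile, and ran from 11.0 TPM for AARS2 (alanine) to 242 TPM for IARS2 (isoleucine). Levels of different genes are compared here as TPM, which is corrected for length. In PC9 the cytosolic transcript was 23.6 times as abundant as the mitochondrial one for alanine and 17.0 times for threonine, but 0.972 times for isoleucine and 0.867 times for cysteine.

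Summed over the 20 cytosolic genes, the libraries held 3546 and 3548 TPM in PC9, 4400 and 4405 TPM in PC9-BrM4, and 3943 and 3742 TPM in PC9-AMG. The groups did not overlap: PC9-BrM4 was highest, at 1.24 times the PC9 mean, and PC9-AMG was intermediate, at 1.08 times. The 16 mitochondrial genes summed to 773 ± 4.4 TPM (SD, n = 2) in PC9, 822 ± 21.6 TPM in PC9-BrM4 and 767 ± 2.75 TPM in PC9-AMG, so that the mitochondrial total of PC9-AMG differed from that of PC9 by about the spread between libraries. TPM are shares of a library, and in bulk RNA fewer cells of a type and less RNA per cell cannot be told apart.

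Promoter sequences were searched for the C/EBP-ATF response element, the DNA sequence through which ATF4 is known to act, because the ATF4 pathway genes described further on differed between the lines. RefSeq (GRCh38.p14) windows of 300 bases, from 250 before to 50 after an annotated start, were matched for 30 of the 36 genes. DARS, LARS, VARS, YARS, AARS2 and VARS2 had no entry. For 27 of the 39 windows of these genes, the bases after the start were found in a transcript of the same gene, and 0 were found in reverse. Those of AARS, GARS and NARS, printed below, were not found, so their starts are less certain. The letters TGATGNAA, on either strand, were present in 7 of 16 cytosolic genes (43.8%) and 1 of 14 mitochondrial genes (7.14%), against 4.46% of the 27305 genes in the promoter table. The 30 bases around each match are shown 5′ to 3′ on the strand of the gene, with the match in capitals.
AARS: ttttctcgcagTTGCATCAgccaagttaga
CARS: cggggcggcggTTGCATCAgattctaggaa
GARS: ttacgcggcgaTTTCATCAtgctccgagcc
IARS: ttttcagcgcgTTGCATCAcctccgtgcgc
MARS: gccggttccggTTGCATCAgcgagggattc
NARS: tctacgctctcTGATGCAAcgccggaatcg
TARS: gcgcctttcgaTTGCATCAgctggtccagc
YARS2: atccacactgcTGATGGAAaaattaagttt

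These windows lie at chr16:70289675-70289704 (AARS, minus strand), chr11:3057407-3057436 (CARS, minus), chr7:30594834-30594863 (GARS, plus), chr9:92293692-92293721 (IARS, minus), chr12:57488053-57488082 (MARS, plus), chr18:57621804-57621833 (NARS, minus), chr5:33440956-33440985 (TARS, plus) and chr12:32756076-32756105 (YARS2, minus). In 6 of the 8 the match reads TTGCATCA or its reverse complement TGATGCAA, and GARS and YARS2 differ from these letters at the free position. A match is a description of the sequence and was not tested as a binding site. The E-box CACGTG, the sequence bound by MYC, was found in 1 of 16 cytosolic genes (IARS, 6.25%) and 3 of 14 mitochondrial genes (CARS2, EARS2 and MARS2, 21.4%), against 8.77% of all genes in the table.

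Differences between lines were tested with limma on log2(TPM + 1), with the adjusted p taken over all 14195 tested genes and a threshold of 0.05. Fold changes are on that scale and are given as log2 ± the standard error. In PC9-BrM4 against PC9, 21 of the 36 synthetase genes rose and 2 fell. Of all tested genes 46.6% passed in this comparison, 23.4% higher and 23.1% lower, while 58.3% of the synthetase genes rose. Their median log2 fold change was 0.20, and that of all tested genes was -0.00. No synthetase gene changed 2-fold. The PC9-BrM4 libraries lay wholly above the PC9 libraries for 28 genes and wholly below for 5, where 37.4% and 37.8% of tested genes did so.

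Of the 12 free cytosolic enzymes 10 rose and 0 fell in PC9-BrM4, with a median log2 fold change of 0.48. VARS, the valine enzyme, stood at 70.9 and 72.7 TPM in PC9 and at 122 and 137 TPM in PC9-BrM4, a log2 fold change of 0.84 ± 0.06 (limma adjusted p = 4.80e-05). Both PC9-BrM4 libraries lay well above both PC9 libraries. WARS, the tryptophan enzyme, rose from 37.3 and 39.7 TPM to 57.4 and 55.9 TPM (0.54 ± 0.06, limma adjusted p = 0.000447). GARS, the glycine enzyme of cytosol and mitochondria, rose from 227 and 220 TPM to 331 and 315 TPM (0.53 ± 0.07, limma adjusted p = 0.000694). None of these 3 genes overlapped between the lines.

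SARS, FARSA, YARS, FARSB and HARS, the enzymes for serine, the phenylalanine alpha and beta subunits, tyrosine and histidine, rose by log2 fold changes between 0.45 and 0.51. FARSA stood at 91.2 and 93.1 TPM in PC9 and 127 and 133 TPM in PC9-BrM4, and FARSB at 205 and 204 TPM against 287 and 282 TPM, so both subunits of the same enzyme rose. TARS, the most abundant synthetase transcript, rose from 622 and 617 TPM to 813 and 794 TPM (0.37 ± 0.04, limma adjusted p = 0.000365). NARS (asparagine) rose by 0.24 ± 0.05. AARS (alanine) at 0.02 ± 0.05 and CARS (cysteine) at 0.06 ± 0.05 did not pass.

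Of the 8 enzymes of the multisynthetase complex, 5 rose and 1 fell in PC9-BrM4, with a median of 0.20. LARS (leucine) rose from 116 and 113 TPM to 144 and 151 TPM (0.36 ± 0.05, limma adjusted p = 0.00110), and KARS (lysine) from 256 and 254 TPM to 305 and 309 TPM (0.27 ± 0.04, limma adjusted p = 0.00160). IARS (isoleucine), EPRS (glutamate and proline) and RARS (arginine) rose by 0.20 to 0.23, and DARS (aspartate) and QARS (glutamine) did not pass, at 0.08 and -0.05. MARS, the methionine enzyme, was the exception among the cytosolic genes: it fell from 161 and 165 TPM to 146.3 and 145.5 TPM (log2 -0.16 ± 0.04, limma adjusted p = 0.0122). All 3 scaffold genes rose, led by AIMP2 from 94.9 and 92.1 TPM to 153 and 147 TPM (0.67 ± 0.05, limma adjusted p = 6.46e-05), with AIMP1 at 0.21 and EEF1E1 at 0.22.

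Among the mitochondrial genes 6 of 16 rose and 1 fell in PC9-BrM4, with a median of 0.13. VARS2 (valine) rose from 40.4 and 39.1 TPM to 55.3 and 61.5 TPM (0.54 ± 0.06, limma adjusted p = 0.000406). MARS2 (methionine) rose from 10.1 and 12.0 TPM to 16.1 and 15.0 TPM (0.46 ± 0.11, limma adjusted p = 0.00963). For both genes the lines did not overlap, although the PC9 libraries differed by more for MARS2. NARS2 (asparagine) rose by 0.31, CARS2 (cysteine) by 0.31, EARS2 (glutamate) by 0.20 and SARS2 (serine) by 0.19. HARS2, the histidine enzyme of mitochondria, fell from 41.2 and 42.0 TPM to 34.9 and 37.3 TPM (log2 -0.20 ± 0.06, limma adjusted p = 0.0347). The other 9 mitochondrial genes lay between -0.12 and 0.13.

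Of these 23 calls 16 held in each of 15 other fits, and those of EPRS, MARS, RARS, EARS2, HARS2, MARS2 and SARS2 did not. Apart from left-out libraries, EPRS missed the threshold with no filter (limma adjusted p = 0.089), no trend (0.0831), quantile normalization (0.0765) and a replicate block (0.0577). HARS2 did so with no filter (0.0569) and no trend (0.0579). SARS2 did so with no filter (0.0559), no trend (0.0615), FPKM (0.0505) and a fit per pair of lines (0.0577). MARS passed no longer without PC9 replicate 1 (limma adjusted p = 0.0507) or PC9 replicate 2 (0.103), and RARS not without PC9 replicate 1 (0.0538). When PC9-BrM4 replicate 2 was left out, the limma adjusted p was 0.180 for EPRS, 0.0870 for EARS2 and 0.158 for SARS2. It was 0.138 for HARS2 and 0.0581 for MARS2 when PC9-BrM4 replicate 1 was left out. The limma adjusted p without PC9 replicate 1 was 0.114 for EPRS, 0.126 for EARS2, 0.110 for HARS2, 0.0641 for MARS2 and 0.223 for SARS2, and without PC9 replicate 2 it was 0.114 for EPRS, 0.0694 for EARS2, 0.153 for HARS2 and 0.0768 for SARS2. SARS2 also missed the threshold without PC9-AMG replicate 1 (limma adjusted p = 0.0572) or replicate 2 (0.0573). Mitochondrial genes that rose numbered 3 without PC9 replicate 1, against 6 with all libraries. TARS2 passed as lower with quantile normalization (limma adjusted p = 0.0465) and FPKM (0.0484), and IARS2 with quantile normalization (0.0461).

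**Figure D1:**
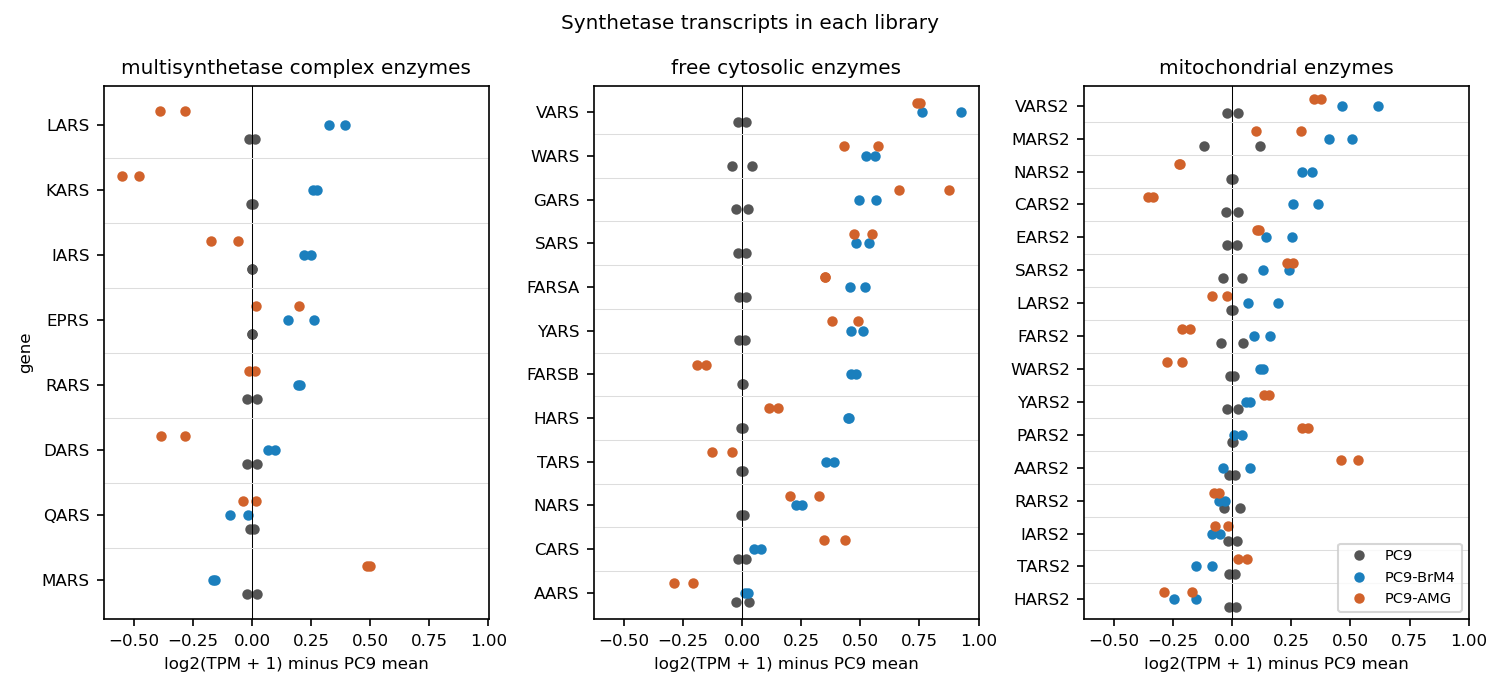
Level of each synthetase gene in each of the 6 libraries, as log2(TPM + 1) minus the mean of the PC9 libraries, for multisynthetase complex enzymes, free cytosolic enzymes and mitochondrial enzymes; each point is 1 library. The PC9-BrM4 points of VARS, WARS and GARS lie to the right of PC9, while the PC9-AMG points of KARS, LARS and DARS lie to the left.

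In PC9-AMG against PC9, 15 of the 36 synthetase genes rose and 10 fell, with a median log2 fold change of 0.08 against -0.01 over all tested genes. Of all tested genes 55.5% passed, 27.8% higher and 27.7% lower, so the 27.8% of synthetase genes that fell match the background and the 41.7% that rose exceed it. The libraries of PC9-AMG lay wholly above those of PC9 for 18 genes and wholly below for 14, where 39.6% and 40.2% of tested genes did so. No synthetase gene changed 2-fold.

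Again the free cytosolic enzymes mostly rose: 9 of 12 did, 2 fell, and the median was 0.37. GARS stood at 410 and 355 TPM in PC9-AMG against 227 and 220 TPM in PC9 (0.77 ± 0.07, limma adjusted p = 0.000101). VARS stood at 120.5 and 121.7 TPM against 70.9 and 72.7 TPM (0.75 ± 0.06, limma adjusted p = 6.30e-05). SARS stood at 290.3 and 275.5 TPM against 200 and 196 TPM (0.51 ± 0.04, limma adjusted p = 8.70e-05). In each of these 3 genes both PC9-AMG libraries lay above both PC9 libraries. WARS, YARS, CARS, FARSA, NARS and HARS rose by 0.50, 0.44, 0.39, 0.35, 0.26 and 0.13. AARS fell from 219 and 228 TPM to 193 and 183 TPM (log2 -0.25 ± 0.05, limma adjusted p = 0.00247), and FARSB fell by 0.17 on the log2 scale, so the subunits of the phenylalanine enzyme moved in opposite directions. TARS stood at -0.09 ± 0.04 and did not pass.

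The multisynthetase complex enzymes did not rise as a group in PC9-AMG: 1 of 8 rose, 3 fell, and the median was -0.06. KARS fell from 256 and 254 TPM to 174 and 183 TPM (log2 -0.52 ± 0.04, limma adjusted p = 6.43e-05). LARS fell from 116 and 113 TPM to 93.9 and 87.2 TPM (log2 -0.34 ± 0.05, limma adjusted p = 0.00115), and DARS from 98.2 and 95.1 TPM to 79.2 and 73.9 TPM (log2 -0.33 ± 0.05, limma adjusted p = 0.00110). For KARS, LARS and DARS every PC9-AMG library was below every PC9 library. MARS moved the other way, from 161 and 165 TPM to 229 and 231 TPM (0.49 ± 0.04, limma adjusted p = 6.23e-05). EPRS, IARS, QARS and RARS lay between -0.12 and 0.11 and did not pass. Of the scaffold genes AIMP2 rose by 0.14, while AIMP1 at -0.13 and EEF1E1 at -0.05 did not pass.

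Of the 16 mitochondrial genes 5 rose and 5 fell in PC9-AMG, with a median of -0.00. These shares of 31.2% each are near the 27.8% and 27.7% of all tested genes. AARS2 rose from 9.39 and 9.58 TPM to 13.4 and 14.1 TPM (0.50 ± 0.08, limma adjusted p = 0.00134), and was the mitochondrial gene with the largest rise here. VARS2, PARS2 (proline), SARS2 and YARS2 (tyrosine) rose by 0.36, 0.31, 0.24 and 0.15. CARS2 fell from 66.5 and 68.9 TPM to 53.4 and 52.7 TPM (log2 -0.35 ± 0.05, limma adjusted p = 0.00118). WARS2 (tryptophan), HARS2, NARS2 and FARS2 (phenylalanine) fell by 0.24, 0.23, 0.22 and 0.20 on the log2 scale. For alanine, cysteine, asparagine, tryptophan and histidine the enzymes of the compartments passed in opposite directions. However, HARS, HARS2 and WARS2 lost their calls in some other fits, as given further on. The ratio of AARS to AARS2 was 23.6 in PC9, 23.5 in PC9-BrM4 and 13.6 in PC9-AMG, and that of CARS to CARS2 was 0.867, 0.730 and 1.46. In the same order the ratio of NARS to NARS2 was 4.07, 3.85 and 5.74, that of WARS to WARS2 1.82, 2.45 and 3.11, and that of HARS to HARS2 2.08, 3.29 and 2.69.

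Of these 25 calls 18 held in each of the 15 other fits, and those of FARSB, HARS, FARS2, HARS2, SARS2, WARS2 and YARS2 did not. Apart from left-out libraries, HARS missed the threshold with no trend (limma adjusted p = 0.074), median centring (0.0934), quantile normalization (0.0839) and FPKM (0.0682). YARS2 did so with no trend (0.0602), median centring (0.0578) and quantile normalization (0.0772), and FARS2 with a replicate block (0.0527). Without PC9 replicate 1 the limma adjusted p was 0.0505 for FARSB, 0.138 for HARS, 0.0606 for FARS2, 0.0651 for HARS2, 0.0856 for SARS2, 0.0719 for WARS2 and 0.183 for YARS2. Without PC9 replicate 2 the limma adjusted p was 0.124 for HARS, 0.205 for FARS2, 0.0920 for HARS2, 0.0555 for WARS2 and 0.0828 for YARS2. Without PC9-AMG replicate 1 it was 0.114 for FARS2, 0.0904 for HARS2, 0.0520 for WARS2 and 0.0908 for YARS2 in limma, and without PC9-AMG replicate 2 it was 0.101 for HARS, 0.0739 for FARS2, 0.0534 for SARS2 and 0.0605 for YARS2. Mitochondrial genes that fell numbered 2 without PC9 replicate 1, PC9 replicate 2 or PC9-AMG replicate 1, against 5 with all libraries, and those that rose numbered 3 without PC9 replicate 1 or PC9-AMG replicate 2. Genes that did not pass also gained calls: IARS was lower without PC9-AMG replicate 1 (limma adjusted p = 0.0243), with quantile normalization (0.0273) and with FPKM (0.0411), TARS was lower with quantile normalization (0.0343), and EPRS was higher without PC9-AMG replicate 2 (0.0387).

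Both sublines were compared with the same PC9 libraries, so their differences from PC9 are not independent of each other. Against PC9, 10 genes rose in both sublines: FARSA, GARS, HARS, NARS, SARS, VARS, WARS and YARS in the cytosol, and SARS2 and VARS2 in mitochondria. A further 5 rose in PC9-BrM4 and fell in PC9-AMG, namely FARSB, KARS, LARS, CARS2 and NARS2. MARS fell in PC9-BrM4 and rose in PC9-AMG, HARS2 fell in both, and QARS, IARS2, LARS2 (leucine), RARS2 (arginine) and TARS2 (threonine) passed in neither.

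The direct comparison of PC9-AMG with PC9-BrM4 tests the difference between the sublines. In it 6 of the 36 synthetase genes were higher in PC9-AMG and 16 were lower, where 56.1% of all tested genes passed, 28.1% higher and 28% lower. The share of synthetase genes that were lower was 44.4%, and the median log2 fold change was -0.10 against -0.01 over all tested genes. The PC9-AMG libraries lay wholly below those of PC9-BrM4 for 20 genes and wholly above for 7, where 39.3% and 38.2% of tested genes did so.

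KARS differed most, at 174 and 183 TPM in PC9-AMG against 305 and 309 TPM in PC9-BrM4 (log2 -0.78 ± 0.04, limma adjusted p = 7.06e-06). LARS stood at 93.9 and 87.2 TPM against 144 and 151 TPM (log2 -0.70 ± 0.05, limma adjusted p = 3.13e-05). CARS2 stood at 53.4 and 52.7 TPM against 81.1 and 87.4 TPM (log2 -0.66 ± 0.05, limma adjusted p = 4.76e-05). For these genes the sublines were widely separated, on either side of PC9. FARSB, NARS2, TARS, DARS, WARS2, IARS, FARS2, HARS and AARS were lower in PC9-AMG by 0.27 to 0.64 on the log2 scale. In the opposite direction MARS stood at 229 and 231 TPM in PC9-AMG against 146.3 and 145.5 TPM in PC9-BrM4 (0.65 ± 0.04, limma adjusted p = 1.19e-05), AARS2 was higher by 0.48, CARS by 0.33, PARS2 by 0.28, GARS by 0.24 and TARS2 by 0.16.

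Within the multisynthetase complex 5 of 8 enzymes and 3 of 3 scaffold genes were lower in PC9-AMG than in PC9-BrM4, and of these 11 genes MARS was the 1 that passed as higher. AIMP2 stood at 99.9 and 107 TPM against 153 and 147 TPM (log2 -0.53 ± 0.05, limma adjusted p = 0.000104), and AIMP1 at 59.4 and 57.0 TPM against 74.8 and 72.9 TPM (log2 -0.34 ± 0.05, limma adjusted p = 0.000918). VARS, SARS, WARS, YARS and NARS, which rose in both sublines, differed between them by -0.10 to 0.02 with standard errors of 0.04 to 0.06, and did not pass. That they did not pass does not show that their levels are equal.

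Of the 22 calls between the sublines 17 held in each of 15 other fits, and those of FARSA, GARS, LARS2, TARS2 and VARS2 did not. Apart from left-out libraries, GARS missed the threshold with no filter (limma adjusted p = 0.0599) and no trend (0.0526), and FARSA with no trend (0.0786) and a fit per pair of lines (0.0609). LARS2 and VARS2 did so with no filter, no trend, a fit per pair and a replicate block (0.0507 to 0.0865). TARS2 did so with no trend, a fit per pair and a replicate block (0.0503 to 0.0722). Without PC9-AMG replicate 1 the limma adjusted p was 0.0788 for FARSA, 0.0827 for GARS, 0.181 for LARS2, 0.0648 for TARS2 and 0.137 for VARS2, and without PC9-AMG replicate 2 it was 0.0826 for FARSA, 0.0786 for LARS2, 0.121 for TARS2 and 0.0905 for VARS2. Without PC9-BrM4 replicate 2 the limma adjusted p was 0.105 for FARSA, 0.105 for GARS, 0.194 for LARS2 and 0.164 for VARS2, and without PC9-BrM4 replicate 1 it was 0.116 for TARS2. Leaving out either PC9 library, which changes the shared spread, raised the limma adjusted p of FARSA, LARS2, TARS2 and VARS2 to between 0.0617 and 0.0862. VARS passed as lower in PC9-AMG without PC9-BrM4 replicate 1 (limma adjusted p = 0.0239), and EPRS without PC9-AMG replicate 1 (0.0448).

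**Figure D2:**
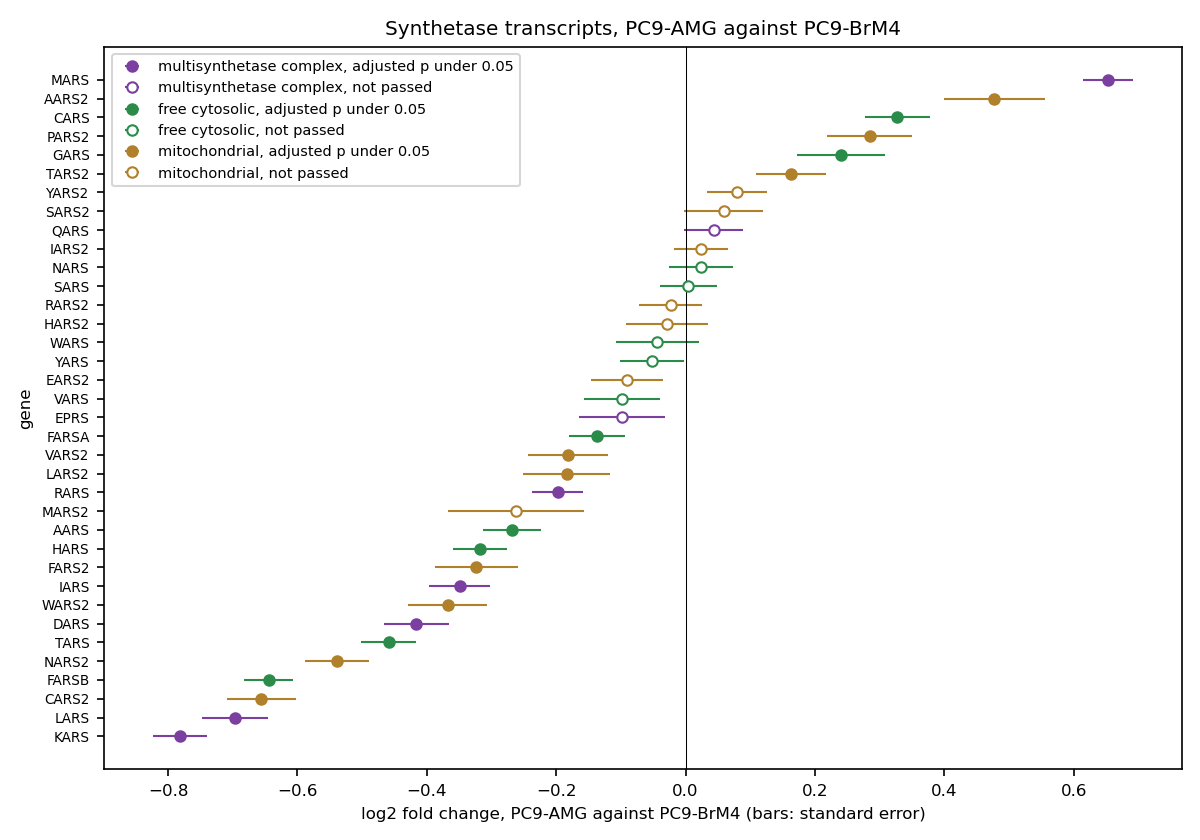
Log2 fold change of each synthetase gene in PC9-AMG against PC9-BrM4, with bars for the standard error from limma; filled points have an adjusted p under 0.05 and colours mark multisynthetase complex, free cytosolic and mitochondrial enzymes. KARS at -0.78 and MARS at 0.65 mark the ends of the range, and 16 filled points lie below 0 against 6 above.

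Each gene was then set beside the other tested genes within 5 Mb on its chromosome, 20 to 221 genes per synthetase. MARS (chr12:57487953-57516655, plus strand, hg38 as in the files) lies in a region that was lower as a whole in PC9-BrM4: of 120 neighbours 84.2% fell, with a median log2 fold change of -0.52. Relative to that median MARS stood at 0.36, so that its fall and the fall of the region cannot be told apart. In PC9-AMG against PC9 the same neighbours had a median of -0.01, and MARS relative to them stood at 0.50. WARS on chromosome 14 had 59 neighbours in PC9-BrM4 with a median of 0.26, of which 52.5% rose, and its rise of 0.54 was 0.28 relative to them. CARS2, EARS2 and RARS stood at 0.18, 0.11 and 0.11 relative to their regions in PC9-BrM4, each lower by over 1.5 times, and EPRS stood higher, at 0.38.

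In PC9-AMG against PC9 the neighbours of KARS (chr16:75627724-75647687, minus strand) had a median of -0.44, 71.1% of the 38 genes fell, and KARS relative to them stood at -0.07. AARS (chr16:70252394-70289509, minus strand), on the same chromosome, had 115 neighbours with a median of -0.32 and stood at 0.07 relative to them. SARS2 on chromosome 19 had 193 neighbours with a median of 0.33 and stood at -0.09. The calls of AARS and SARS2 therefore changed sign once the median of the region was subtracted. PARS2 on chromosome 1 had 52 neighbours with a median of 0.26, of which 59.6% rose, and its rise of 0.31 was 0.05 relative to them. DARS, WARS2 and YARS stood at -0.18, -0.13 and 0.27 relative to their regions, and YARS2 at 0.43. TARS on chromosome 5 showed the reverse arrangement: its 27 neighbours had a median of -0.56, and TARS, at -0.09, stood 0.48 above them.

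Against PC9-BrM4, the neighbours of KARS, AARS and TARS in PC9-AMG had medians of -0.49, -0.46 and -0.62. Relative to these, KARS stood at -0.29, while AARS at 0.19 and TARS at 0.17 changed sign. The neighbours of MARS had a median of 0.45, and its difference of 0.65 was 0.20 relative to them. DARS, FARS2, FARSA and WARS2 stood at -0.19, -0.14, -0.07 and -0.22 relative to their regions, PARS2 at 0.14 and RARS at -0.32. The regions around LARS, FARSB, CARS2 and NARS2, the other genes that went opposite ways in the sublines, lay close to 0 in PC9-AMG against PC9, at 0.05, -0.03, 0.02 and 0.02. GARS, VARS and SARS also had neighbours near 0 there, at 0.01, 0.09 and -0.01. Copy number was not measured, and whether it moved with these regional shifts was not tested.

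**Figure D3:**
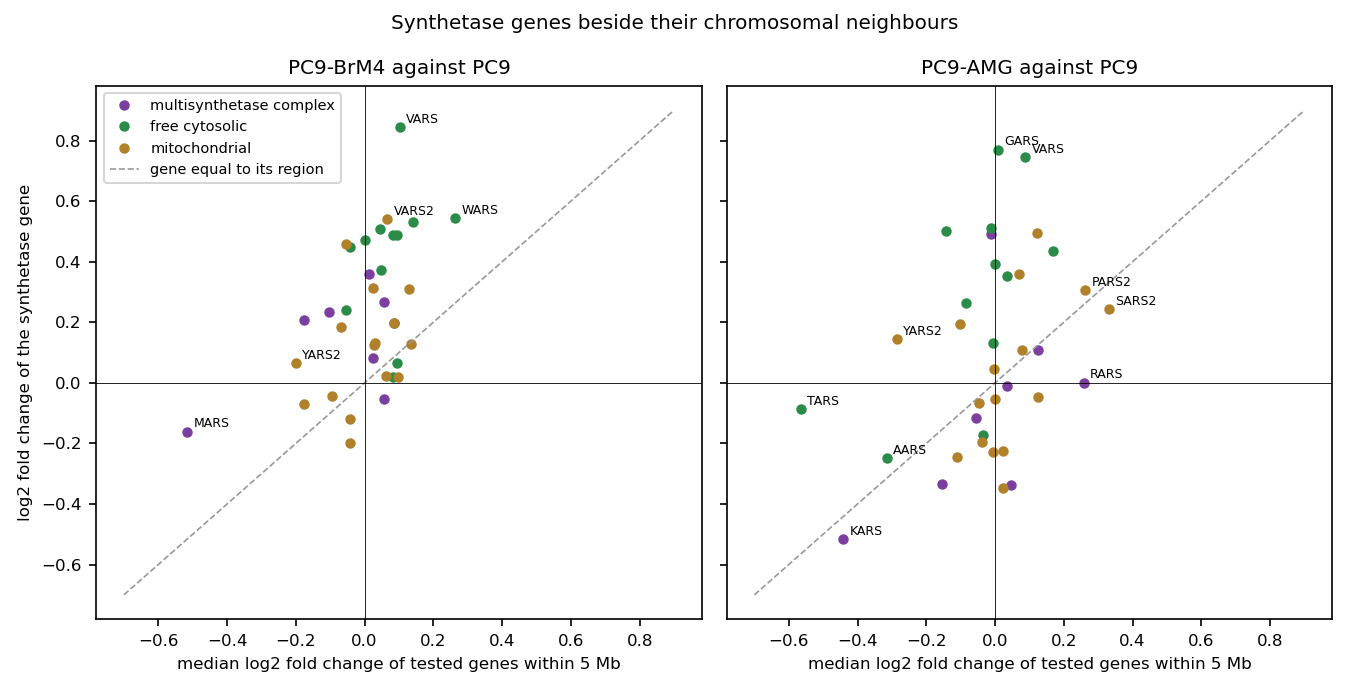
Log2 fold change of each synthetase gene (vertical axis) against the median log2 fold change of the other tested genes within 5 Mb (horizontal axis), for PC9-BrM4 and PC9-AMG against PC9; each point is 1 gene and the dashed line marks equality. MARS sits at a regional median of -0.52 in PC9-BrM4, KARS lies close to the line at -0.44 in PC9-AMG, and TARS lies above it at -0.56.

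Some synthetase genes overlap a neighbour on the other strand, and whether the authors' quantification used strand is not stated, so their values are uncertain by reads from the shared bases. HARS and HARS2 share 302 bases, and HARS rose while HARS2 fell in both sublines. MARS shares 68 bases with DDIT3, the stress transcription factor gene, which stood at 42.5 and 44.8 TPM in PC9, 37.2 and 32.5 TPM in PC9-BrM4 and 96.9 and 77.3 TPM in PC9-AMG. DDIT3 thus fell and rose with MARS, and the part of the overlap in this was not tested. It also lies in the region of MARS, whose neighbours had medians of -0.52 in PC9-BrM4 and -0.01 in PC9-AMG against PC9. The part of the region was not tested either. YARS shares 591 bases with S100PBP, DARS 509 with DARS-AS1, WARS2 277 with LOC101929147 and SARS2 189 with MRPS12. For SARS the deposited coverage was 0.405 to 0.411 times that expected from its FPKM in every library, so its level relative to other genes is uncertain while the ratio between lines rests on a like deviation in all 6.

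The 12 cytosolic synthetase genes known from earlier work as ATF4 targets were AARS, CARS, EPRS, GARS, IARS, LARS, MARS, NARS, SARS, TARS, WARS and YARS. In PC9-BrM4 9 of them rose and 1 fell, with a median of 0.30, and of the other 8 cytosolic genes 6 rose and 0 fell, with a median of 0.36. In PC9-AMG 7 of the 12 rose and 2 fell, with a median of 0.33, and of the other 8 genes 3 rose and 3 fell, with a median of -0.00. Of the 7 cytosolic genes whose promoter matched TGATGNAA above, GARS and NARS rose in both sublines, CARS and MARS rose in PC9-AMG, IARS and TARS rose in PC9-BrM4, and AARS fell in PC9-AMG. Thus 4 of the 7 rose in each subline, and 1 of 7 fell in each.

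The remainder of the ATF4 pathway differed more between the sublines. Of 31 regulators and targets other than synthetases, 26 rose and 1 fell in PC9-AMG (83.9% and 3.23%), with a median log2 fold change of 0.64. In PC9-BrM4 13 rose and 8 fell (41.9% and 25.8%), with a median of 0.14. Directly compared, 23 were higher in PC9-AMG and 3 were lower (74.2% and 9.68%). Of all tested genes 27.8% rose and 27.7% fell in PC9-AMG, and 23.4% and 23.1% in PC9-BrM4. Directly compared, these shares were 28.1% and 28%. DDIT3, among the 8 and the 23, overlaps MARS, whose neighbours had medians of -0.52 and 0.45 in these comparisons. The counts were not corrected for such regions. ATF4 itself stood at 484 and 493 TPM in PC9, 467 and 406 TPM in PC9-BrM4 and 625 and 598 TPM in PC9-AMG. It rose in PC9-AMG (0.32 ± 0.07, limma adjusted p = 0.00436) and did not pass in PC9-BrM4 (log2 -0.17 ± 0.07, limma adjusted p = 0.0726). Its mRNA level does not measure its protein, which is set largely by translation.

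Individual targets did not all differ between the sublines. ASNS, which makes asparagine, stood at 96.8 and 104 TPM in PC9, 188 and 177 TPM in PC9-BrM4 and 183 and 152 TPM in PC9-AMG, and rose in both sublines. CTH, an enzyme of cysteine synthesis, stood at 31.8 and 30.2 TPM, 80.1 and 76.0 TPM, and 71.7 and 57.3 TPM, and NUPR1, a stress-induced nuclear protein gene, at 2.68 and 2.68 TPM, 38.6 and 30.3 TPM, and 33.1 and 29.9 TPM. Both were above PC9 in every subline library. CTH nevertheless passed as lower in PC9-AMG than in PC9-BrM4, while ASNS and NUPR1 did not pass between the sublines. ATF3, a stress transcription factor, fell in PC9-BrM4 (log2 -0.41 ± 0.10, limma adjusted p = 0.0130) and rose in PC9-AMG (2.17 ± 0.10, limma adjusted p = 7.87e-06). Of 10 immediate early genes 8 rose, among them DUSP1 and JUN, and 1, FOS, fell in PC9-AMG (80% and 10%). In PC9-BrM4 2 rose and 2, among them DUSP1, fell (20% each). The shares over all tested genes were 27.8% and 27.7% in PC9-AMG and 23.4% and 23.1% in PC9-BrM4. The part of the immediate early genes in the result was not tested.

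Among the eIF2 alpha kinases that lead to ATF4, EIF2AK4 (GCN2, which senses uncharged tRNA) rose in PC9-BrM4 from 40.2 and 40.1 TPM to 53.1 and 58.3 TPM (0.46 ± 0.06, limma adjusted p = 0.000642) and stood at 44.0 and 43.1 TPM in PC9-AMG, where it did not pass. EIF2AK3 (PERK, which senses stress of the endoplasmic reticulum) rose in PC9-AMG by 0.24 and did not pass in PC9-BrM4, at -0.19. EIF2AK1 rose by 0.16 in PC9-BrM4, and EIF2AK2 passed in neither subline.

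Genes of MYC and the nucleolus, where ribosomes are built, rose more widely in PC9-BrM4. Of 10 genes, 9 rose and 1 fell there, 6 rose and 1 fell in PC9-AMG, and 7 were lower in PC9-AMG than in PC9-BrM4 against 2 higher. MYC stood at 76.1 and 83.4 TPM in PC9, 101 and 105 TPM in PC9-BrM4 and 119 and 114 TPM in PC9-AMG. BOP1, a ribosome assembly factor, stood at 65.3 and 66.1, 130 and 139, and 94.4 and 98.4 TPM. Both genes rose in both sublines, MYC to its highest level in PC9-AMG and BOP1 in PC9-BrM4. Of 12 proliferation genes 2 rose and 4 fell in PC9-BrM4 (16.7% and 33.3%), and 0 rose and 8 fell in PC9-AMG (0% and 66.7%). The shares of all tested genes just given apply here too. PCNA stood at 703 and 730 TPM in PC9 and 342 and 362 TPM in PC9-AMG. Whether growth rate moved with the synthetase levels was not tested.

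**Figure D4:**
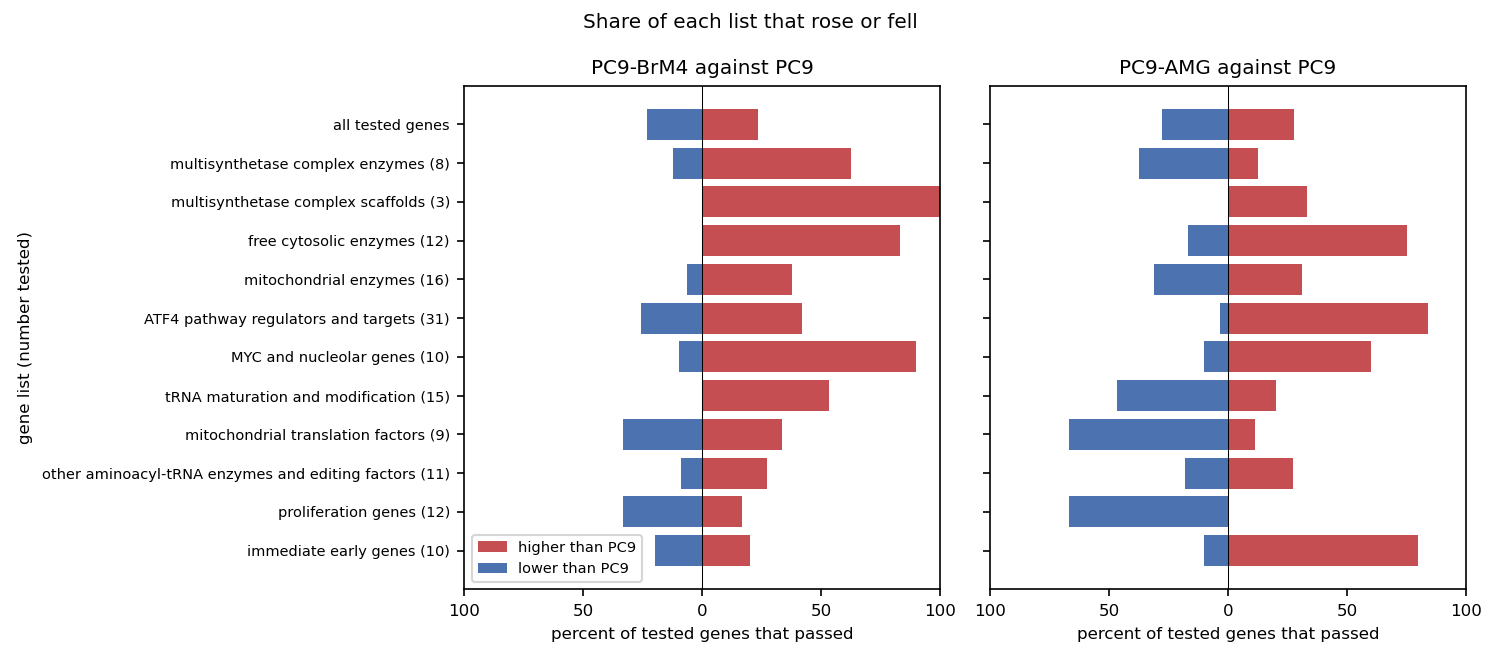
Percent of the tested genes in each list that were higher (right, red) or lower (left, blue) than PC9 with a limma adjusted p under 0.05, for PC9-BrM4 and PC9-AMG, beside all tested genes. Free cytosolic enzymes rose in 83.3% of cases in PC9-BrM4 and 75% in PC9-AMG, and multisynthetase complex enzymes in 62.5% and 12.5%.

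Genes that prepare the tRNAs for charging differed between the sublines. Of 15 genes for tRNA maturation and modification, 8 rose and 0 fell in PC9-BrM4 (53.3% and 0%), whereas 3 rose and 7 fell in PC9-AMG (20% and 46.7%). Over all tested genes 23.4% rose and 23.1% fell in PC9-BrM4, while for PC9-AMG the shares were 27.8% and 27.7%. The list is small, and its counts are descriptions. TRMT61A, a subunit of a tRNA methyltransferase, stood at 29.8 and 32.0 TPM in PC9, 48.4 and 53.8 TPM in PC9-BrM4 and 14.8 and 14.9 TPM in PC9-AMG. NSUN2, which methylates cytosines in tRNA, stood at 248 and 239, 298 and 313, and 201 and 197 TPM. Both were above PC9 in PC9-BrM4 and below it in PC9-AMG, and both passed in each comparison.

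Of 11 other genes for charged tRNA and its editing, 3 rose and 1 fell in PC9-BrM4 (27.3% and 9.09%), and 3 rose and 2 fell in PC9-AMG (27.3% and 18.2%), with the shares that rose near the background. TARSL2, a second threonyl-tRNA synthetase gene for the cytosol, was at 5.30 and 5.16 TPM in PC9, 7.22 and 7.28 TPM in PC9-BrM4 and 6.33 and 6.31 TPM in PC9-AMG, and rose in both sublines. GATB, a subunit of the enzyme that makes glutaminyl-tRNA in mitochondria, fell in PC9-AMG from 29.5 and 30.6 TPM to 20.6 and 21.1 TPM (log2 -0.51 ± 0.06, limma adjusted p = 0.000258), and GATC, another subunit, rose there by 0.19. Of 9 mitochondrial translation factors 3 rose and 3 fell in PC9-BrM4 (33.3% each), and 1 rose and 6 fell in PC9-AMG (11.1% and 66.7%). Of 6 cytosolic elongation factor genes 1 rose (16.7%) and 3 fell (50%) in each subline, and EEF1A2, which delivers charged tRNA to the ribosome, fell in PC9-BrM4 from 70.4 and 69.9 TPM to 9.43 and 11.0 TPM.

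WARS, the tryptophan enzyme, is also known to be induced by interferon gamma. Of 8 interferon gamma responsive genes 6 were tested. In PC9-BrM4 2 of these rose and 1 fell (33.3% and 16.7%, against 23.4% and 23.1% of all tested genes). In PC9-AMG 4 rose and 0 fell (66.7% and 0%, against 27.8% and 27.7%). TAP1, a peptide transporter of antigen presentation, rose in both, by 0.71 and 1.03. WARS rose in both by 0.54 and 0.50, and whether these genes bear on it was not tested.

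By catalytic fold, 7 of 10 cytosolic class I genes rose and 1 fell in PC9-BrM4 (70% and 10%). Of 11 class II genes 9 rose and 0 fell (81.8% and 0%). EPRS is in both classes because its protein joins an enzyme of each. In PC9-AMG 5 class I genes rose and 1 fell (50% and 10%), and 5 class II genes rose and 4 fell (45.5% and 36.4%). GARS and KARS, the genes that serve both compartments, rose together in PC9-BrM4 and went opposite ways in PC9-AMG.

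Over the 20 cytosolic genes, the mean was highest in PC9-BrM4 for 14, in PC9-AMG for 5 and in PC9 for 1, and in 10, 3 and 0 of these the libraries of the highest line did not overlap those of the next. Over the 16 mitochondrial genes it was highest in PC9-BrM4 for 8, in PC9-AMG for 5 and in PC9 for 3, without overlap in 8, 4 and 1. The same count was not made over all tested genes, so these numbers describe the synthetase genes alone. In each direction of the 3 comparisons, the libraries did not overlap for 37.4% to 40.2% of all tested genes. Replicate libraries differed by a median of 0.03, 0.05 and 0.06 on the log2 scale over the 36 genes in PC9, PC9-BrM4 and PC9-AMG. HARS in PC9-AMG, at 0.13, was the smallest change that passed in the 3 comparisons.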

How the data were processed

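TRIzol was used to extract the RNA and the TruSeq Stranded mRNA kit to build the libraries, per the labels' protocols. Tools named in the submitters' processing notes, with no role or order, are HISAT2 2.1.0, StringTie 1.3.4d and bcl2fastq, and the build is hg38. Neither the annotation release nor the strand setting is given in the sources used here. For every library a deposited table lists TPM, FPKM and coverage of each gene, per the file headers. Fragments behind each value are not given, so no counting interval is printed. Aligned gigabases were estimated from coverage and FPKM. A whole-series table was not used, because its PC9_EMG columns match no sample label, and the PC9-AMG tables carry the same letters and were assigned by the sample records.

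TPM of one symbol were summed, genes with at least 1 TPM in at least 2 of the 6 libraries were kept, and log2(TPM + 1) was fitted with limma 3.58.1 (R 4.3.3) with 1 mean per line, a mean-variance trend and 3 residual degrees of freedom. P-values were Benjamini-Hochberg adjusted over all 14195 genes within each of 3 comparisons. The procedure was also run on simulated data with normal noise and few changed genes in 1 line. Far more genes passed in the real comparisons, so that run does not show its error rate here. Members and lists were chosen with earlier results of these data known, so list counts are descriptions. All 36 members are accounted for, with library values for those that changed most in each role. From each other list the leading genes by change were named, along with the regulators ATF4, DDIT3, ASNS and MYC and some genes named for their role. These last were chosen after their values were seen. Alternatives were a pseudocount of 0.1, no filter, no trend, median centring, quantile normalization, FPKM, primary chromosomes alone, a fit per pair of lines, a replicate block, leaving out each library and subtracting the regional median. Promoter sequences come from RefSeq, GRCh38.p14, and Python 3.11.15 was used.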

Additional observations from a re-analysis of the deposited data

How the results depend on the processing

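The alternatives changed 1 choice each, except that with FPKM the filter was also applied to FPKM, which left 12820 genes. The cytosolic medians kept their sign in each alternative run, and the mitochondrial median of PC9-AMG against PC9, which lies near 0, did not. In PC9-BrM4 against PC9 the 1 mitochondrial gene that fell became 0 with no filter and with no trend, 3 with quantile normalization and 2 with FPKM. The cytosolic median there was 0.26 with quantile normalization, 0.28 with FPKM and 0.34 with the regional median removed, and the mitochondrial median was 0.110, 0.0941 and 0.102. In PC9-AMG against PC9 the mitochondrial median was -0.0316 with quantile normalization, -0.0163 with FPKM and -0.0358 with the regional median removed, and the cytosolic median was 0.20 with the latter. Between the sublines the mitochondrial median was -0.0471 with FPKM and -0.16 with the regional median removed, and the cytosolic median was -0.0638 with the latter. The regional median also turned MARS in PC9-BrM4 to 0.36, AARS and SARS2 in PC9-AMG against PC9 to 0.0662 and -0.0864, and AARS and TARS between the sublines to 0.19 and 0.17. It was not retested.

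Leaving out 1 library at a time gave, in PC9-BrM4 against PC9, 13 to 15 cytosolic genes that rose and 0 to 1 that fell (median 0.29 to 0.32), and 3 to 5 mitochondrial genes that rose and 0 to 1 that fell (median 0.10 to 0.13). In PC9-AMG against PC9 the ranges were 3 to 5 mitochondrial genes that rose and 2 to 5 that fell, and the mitochondrial median ran from -0.000363 to 0.0215, the latter without PC9-AMG replicate 1. Between the sublines the cytosolic median ran from -0.17 to -0.0834 and the mitochondrial median from -0.11 to -0.0223.

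The replicate numbers did not pair the libraries: deviations correlated at -0.07, -0.03 and -0.06 over 14195 genes. With a replicate block 14 cytosolic genes rose in PC9-BrM4 and 10 in PC9-AMG, and 6 and 5 mitochondrial genes. The depth behind single genes is unknown, and with 2 libraries per line the spread is borrowed across genes and lines.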
